A study of Mus musculus with 12 samples.

Results

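The 8 genes described here encode the PGC-1 coactivators (Ppargc1a, Ppargc1b and Pprc1), the estrogen-related receptors alpha and gamma (Esrra and Esrrg), the nuclear respiratory factors NRF-1 and GABP alpha (Nrf1 and Gabpa) and the PGC-1- and ERR-induced regulator Perm1. They were taken by name from 54356 annotated genes, with earlier results of these data known. All 8 had enough reads to be tested, as did 13876 genes in all. The tissue was interscapular brown fat, the depot between the shoulder blades that makes heat in rodents, from 6 mice labelled cold and 6 labelled ctrl. All 12 were wild type C57BL/6N males aged 20 weeks, and every animal carries its own mouse number. The labels describe single housing at 4 °C for 24 h before dissection and attach that text to the ctrl animals too. It is read here as the treatment of the cold group. The colony was kept at 22 to 24 °C, and the last day of the ctrl animals is not described separately, so single housing and cold cannot be told apart if ctrl animals were grouped. The series text counts 3 cold animals and the labels 6, and the extraction protocol speaks of eWAT, a white depot, while the tissue label says brown fat.

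PGC-1 proteins do not bind DNA themselves. They dock on transcription factors such as the estrogen-related receptors, PPARs and NRF-1, and recruit the enzymes that open chromatin and start transcription. Their shared output is the nuclear program for mitochondria and fatty acid oxidation, and PGC-1 alpha was found as a cold-inducible coactivator in brown adipocytes, where noradrenaline, cAMP and CREB switch its gene on. Estrogen-related receptors are orphan receptors that bind DNA without a known natural ligand and depend on PGC-1 proteins for much of their activity.

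The libraries held about 15984900 to 31424000 estimated reads. Levels are given as CPM, the estimated reads of a gene on a fixed library total after TMM scaling, unless a level per length is named. The summed level of 15 brown adipocyte markers was 26862 to 36616 CPM in cold fat and 21014 to 29586 CPM in ctrl fat. Of these markers 5 were called higher and 1 lower in cold fat (40% called, against 31.6% of all tested genes). Among 8 white adipocyte markers Hoxc10 and Tcf21 were at 0 in all libraries, and the summed level was 440 to 633 CPM in cold fat against 107 to 269 CPM in ctrl fat, with Npr3 alone at 464 ± 86.6 CPM in cold fat and 92.0 ± 28.5 CPM in ctrl fat (SD, n = 6 each). Npr3 was the only marker called of the 5 that could be tested, and their median log2 change was -0.05. Skeletal muscle markers (20 genes) summed to 275 to 7424 CPM in cold fat, with cold 15 highest, and 217 to 2149 CPM in ctrl fat. None of the 20 was called by edgeR's quasi-likelihood test or limma-voom, 1 had an unadjusted p under 0.05 and 1 was called by DESeq2, while their median log2 change was 1.20. Of 8 fibroblast markers 4 were called lower in cold fat and 0 higher, while 15.4% of all tested genes were called lower. The 8 summed to 198 to 312 CPM in cold fat against 259 to 451 CPM in ctrl fat. The part of these shifts in the results below was not tested, apart from the fits with the muscle signal as a covariate that are given with them. In whole tissue, fewer cells of a type and less RNA per cell cannot be told apart. Very short transcripts (effective length below 50 nt) took up 55.2% of the TPM of ctrl 2, and 2.36% to 8.41% in the other libraries.

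Of the 8 genes, Ppargc1a, Perm1, Esrrg and Esrra were higher in cold fat, none was lower, and Ppargc1b, Pprc1, Gabpa and Nrf1 were not called. Calls rest on the quasi-likelihood test of edgeR, adjusted over all genes by Benjamini-Hochberg, at a threshold of 0.05. Among all tested genes, 31.6% were called, 16.2% as higher and 15.4% as lower in cold fat. The count was 4 higher and 0 lower with DESeq2, with limma-voom and with an unadjusted p under 0.05 as well. The median log2 fold change was 0.22 over the 8 genes and -0.01 over all genes tested. The animals of the groups did not overlap for 3 of the 8 genes (Ppargc1a, Perm1 and Esrra, all higher in cold fat), while 8.92% of all tested genes were higher in every cold animal than in any ctrl animal.

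**Figure D1:**
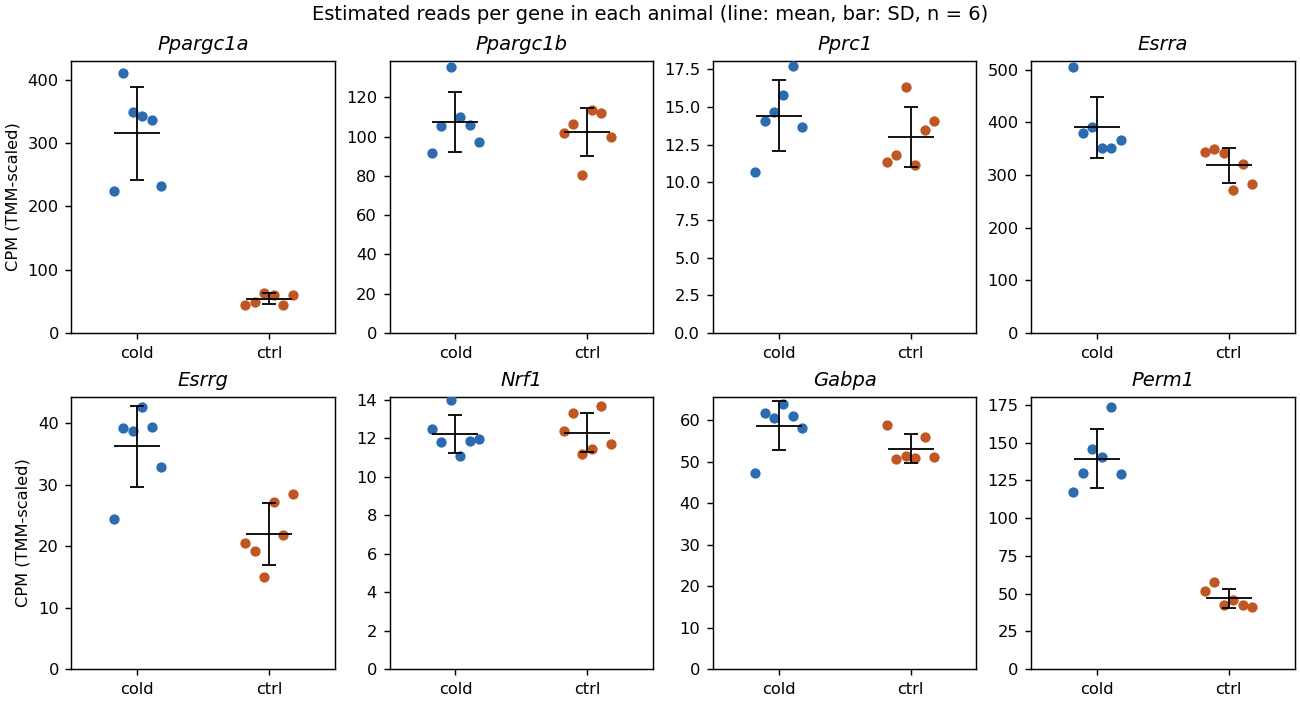
CPM of the 8 genes in each animal, cold on the left and ctrl on the right of each panel, with points for animals and the line and bar for mean and SD (n = 6). Ppargc1a and Perm1 stand clear of ctrl in every cold animal, Esrra does so by a narrow margin, and the other panels overlap.

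Ppargc1a, which encodes PGC-1 alpha, lies at chr5:51454250-51567726 on the minus strand of GRCm38. Its lowest, median and highest levels were 224, 339 and 411 CPM in cold fat and 44.4, 54.6 and 63.5 CPM in ctrl fat. Cold 4 and cold 16 were the lowest cold animals, and even these lay far above the ctrl range. The mean was 316 ± 73.3 CPM in cold fat and 53.7 ± 8.60 CPM in ctrl fat (SD, n = 6 each), and the log2 fold change was 2.55 ± 0.16 (SE, edgeR adjusted p = 3.08e-08), or 5.87-fold. It ranked 57 among all genes by the size of its rise and 24 by p. Cold 7, with the least muscle signal of the cold animals (markers summed to 275 CPM), had the highest Ppargc1a level. Cold 4 and cold 16, next lowest in muscle signal (666 and 845 CPM), had the lowest cold levels. With the muscle markers as a covariate the log2 fold change of Ppargc1a was 2.56.

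Ppargc1b encodes PGC-1 beta, the close relative that drives much the same mitochondrial genes, and lies at chr18:61298136-61400431 on the minus strand. It measured 91.8, 106 and 136 CPM (lowest, median, highest) in cold fat and 80.4, 104 and 113 CPM in ctrl fat. The ranges overlapped almost throughout, only cold 11 lying above all ctrl animals. The log2 fold change was 0.07 ± 0.10 (SE, edgeR adjusted p = 0.630), with a 95% interval of -0.12 to 0.27. The paralogs differed in their response: the log2 ratio of Ppargc1a over Ppargc1b CPM was 1.53 ± 0.28 in cold fat and -0.94 ± 0.36 in ctrl fat (SD, n = 6 each). That difference of 2.47 gave p = 0.00216 in an exact two-sided permutation test, the smallest that the assignments of 12 animals allow, and 0.00433 adjusted over the 2 ratios tested. All 6 cold animals had more Ppargc1a than Ppargc1b reads, and all 6 ctrl animals had fewer.

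Pprc1 encodes PRC, the remaining member of the coactivator family that is known as serum inducible and lies at chr19:46044886-46072915 on the plus strand. It was low, at 10.7, 14.4 and 17.7 CPM in cold fat and 11.2, 12.6 and 16.3 CPM in ctrl fat. Cold animals lay on both sides of the ctrl range. The log2 fold change was 0.14 ± 0.12 (SE, edgeR adjusted p = 0.410), with a 95% interval of -0.10 to 0.39.

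Esrrg encodes ERR gamma, the receptor of highly oxidative tissues, and lies at chr1:187608791-188214885 on the plus strand. Its lowest, median and highest levels were 24.4, 39.01 and 42.7 CPM in cold fat and 15.0, 21.1 and 28.4 CPM in ctrl fat. Cold 4 was within the ctrl range and the other 5 cold animals were above it. The mean was 36.2 ± 6.64 CPM in cold fat and 22.0 ± 5.03 CPM in ctrl fat (SD, n = 6 each), and the log2 fold change was 0.72 ± 0.16 (SE, edgeR adjusted p = 2.67e-03) and 0.65 with the muscle covariate. Among its transcripts, Esrrg-201, with 53.8% of the gene's reads, was 16.3 to 21.9 CPM in cold fat and 9.48 to 15.7 CPM in ctrl fat (log2 fold change 0.64 ± 0.13, edgeR adjusted p = 0.00622). Esrrg-203, with 33.8% of the reads, measured 1.63 to 21.6 CPM in cold fat and 2.03 to 14.4 CPM in ctrl fat and was not called (1.22 ± 0.57, edgeR adjusted p = 0.248). Cold 4 held the 1.63 CPM.

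Esrra encodes ERR alpha, the most abundant estrogen-related receptor of brown fat, and lies at chr19:6910977-6921813 on the minus strand. Its lowest, median and highest levels were 351, 374 and 505 CPM in cold fat and 271, 332 and 350 CPM in ctrl fat. The groups met without overlapping, and cold 4 stood far above the other cold animals. The mean was 391 ± 58.0 CPM in cold fat and 319 ± 33.7 CPM in ctrl fat (SD, n = 6 each), and the log2 fold change was 0.30 ± 0.10 (SE, edgeR adjusted p = 0.0337) or 1.23-fold. The call was lost when cold 7, cold 11, ctrl 9, ctrl 10 or ctrl 14 was left out (edgeR adjusted p of 0.0514, 0.0539, 0.0751, 0.0554 and 0.0725), while the log2 fold change over all single omissions was 0.21 to 0.33. Its main transcript, Esrra-201, with 94.4% of the reads, had a log2 fold change of 0.34 ± 0.11 and was not called in the transcript fit (edgeR adjusted p = 0.0705). Of the 50-base windows in Esrra transcripts, 42 (0.948%) also occur in Mir6990, and Trmt112 overlaps the gene on the opposite strand.

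The relation between both receptors depended on cold 4. The log2 ratio of Esrra over Esrrg CPM was 3.44 ± 0.48 in cold fat and 3.88 ± 0.48 in ctrl fat (SD, n = 6 each), a difference of -0.44 (p = 0.156 raw and adjusted, exact two-sided permutation test). Without cold 4 it was -0.62 (p = 0.0303 before adjustment, exact permutation test). Esrrb, the remaining receptor of the family and best known from stem cells, was far lower in level and had the largest log2 fold change of the 3 receptors. It measured 8.09 to 14.3 CPM in cold fat and 1.35 to 2.34 CPM in ctrl fat, a log2 fold change of 2.40 ± 0.18 (SE, edgeR adjusted p = 8.82e-08). Per length, Esrrb made up 0.853% to 1.80% of the summed level of the 3 receptors in cold fat and 0.178% to 0.378% in ctrl fat, Esrrg 3.57% to 9.50% in cold fat and 2.30% to 8.78% in ctrl fat, and Esrra the rest. Esrra thus held at least 89.4% of the receptor RNA in every animal.

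Gabpa encodes the DNA-binding subunit of GABP, also called nuclear respiratory factor 2, and lies at chr16:84834925-84863779 on the plus strand. It measured 47.2, 60.9 and 63.8 CPM (lowest, median, highest) in cold fat and 50.6, 51.4 and 58.9 CPM in ctrl fat. Cold 4 was below all ctrl animals, while 4 of the other 5 cold animals were above all of them. The log2 fold change was 0.14 ± 0.08 (SE, edgeR adjusted p = 0.183), with a 95% interval of -0.01 to 0.30. Without cold 4 it was 0.20 and past the threshold (edgeR adjusted p = 0.0134).

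Nrf1 encodes nuclear respiratory factor 1, which binds promoters of cytochrome c and of mitochondrial transcription factors, and lies at chr6:30047988-30153458 on the plus strand. It measured 11.1, 11.9 and 14.0 CPM in cold fat and 11.2, 12.0 and 13.7 CPM in ctrl fat. The ranges coincided almost fully. The log2 fold change was -0.01 ± 0.09 (SE, edgeR adjusted p = 0.949), with a 95% interval of -0.18 to 0.16, and its sign turned under several settings.

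Perm1, which in mouse muscle is induced by PGC-1 and ERR proteins and supports their oxidative program, lies at chr4:156215868-156221307 on the plus strand. Its lowest, median and highest levels were 117, 135 and 174 CPM in cold fat and 41.3, 44.1 and 57.4 CPM in ctrl fat. Every cold animal was above every ctrl animal, and cold 15, which had the most muscle signal, was highest. The mean was 139 ± 19.5 CPM in cold fat and 46.8 ± 6.46 CPM in ctrl fat (SD, n = 6 each), and the log2 fold change was 1.57 ± 0.11 (SE, edgeR adjusted p = 3.08e-08) or 2.97-fold. With the muscle markers as a covariate it was 1.52, and in that fit Esrra was at 0.33 and the same 4 of 8 genes were called.

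**Figure D2:**
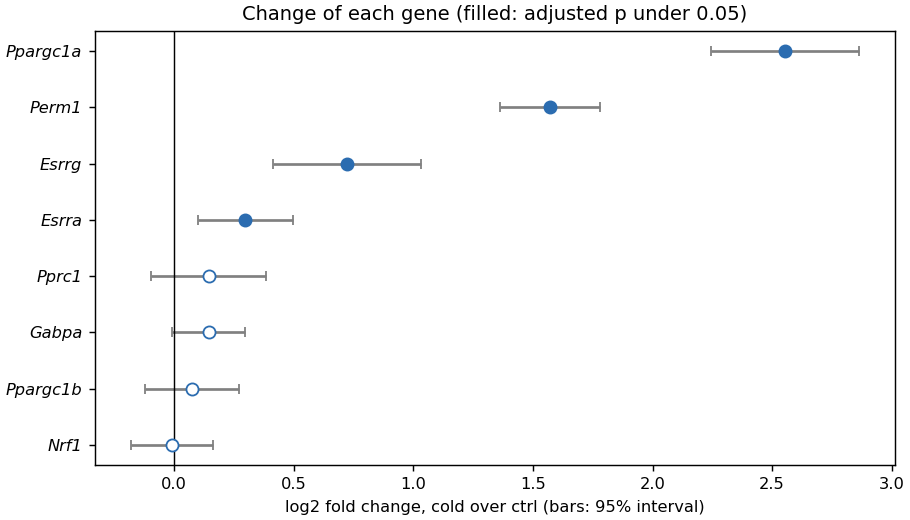
Log2 fold change of each gene, cold over ctrl, with bars for the 95% interval and filled points for genes past the threshold. The changes run from 2.55 for Ppargc1a to -0.01 for Nrf1, and the intervals of the 4 uncalled genes include 0.

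Per length, the order of the genes differed between the groups. In CPM per kb of effective length, Esrra was highest, at 184 ± 26.2 in cold fat and 151 ± 16.3 in ctrl fat (SD, n = 6 each). Ppargc1a came next in cold fat at 82.1 ± 22.3, ahead of Perm1 at 34.04 ± 4.81, and neither range met its neighbour's. From Ppargc1b (24.5 ± 2.61 in cold fat) through Gabpa (19.9 ± 3.41), Esrrg (13.4 ± 3.20), Pprc1 (5.28 ± 2.38) and Nrf1 (4.76 ± 0.590) each cold range overlapped the next. In ctrl fat Ppargc1a, at 10.6 ± 2.03, was below Ppargc1b (24.1 ± 2.73) and Gabpa (17.1 ± 1.19) and beside Perm1 (11.4 ± 1.52). Perm1 exceeded Ppargc1a in only 3 of 6 ctrl animals. Esrrg (8.15 ± 2.87), Nrf1 (4.97 ± 0.496) and Pprc1 (4.17 ± 2.14) closed the ctrl order with overlapping ranges.

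**Figure D3:**
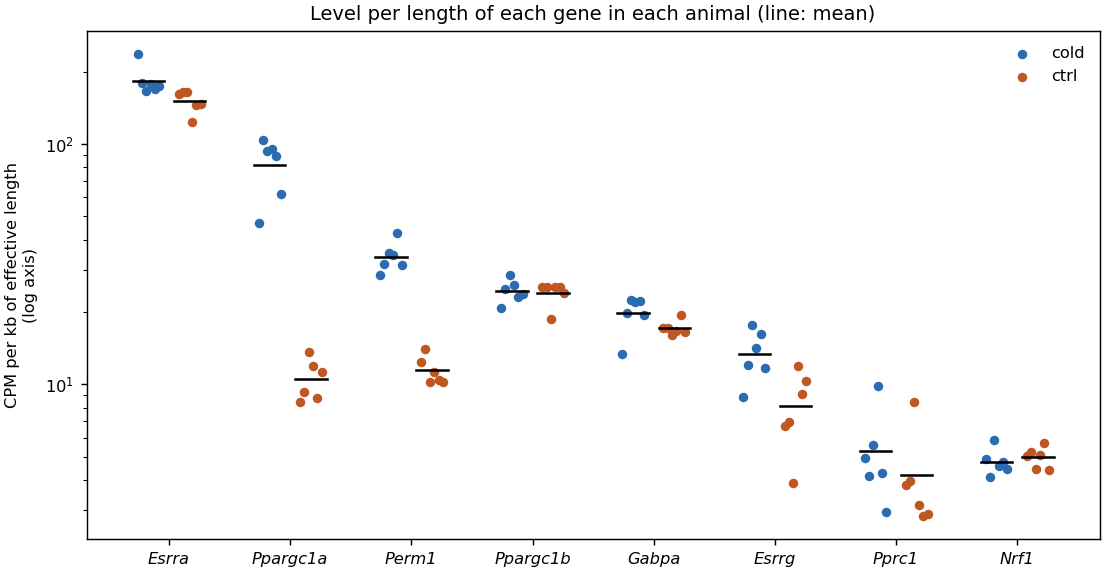
Level per length in each animal on a log axis, cold left and ctrl right of each gene, with a line for the mean. Ppargc1a averages 82.1 in cold fat and 10.6 in ctrl fat, while Ppargc1b averages 24.5 in cold fat and 24.1 in ctrl fat.

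The Ppargc1a gene has 5 annotated transcripts that differ in their start and in exon 7. Ppargc1a-203 is the full-length coding form, with 13 exons over 6464 nt. Ppargc1a-201 and Ppargc1a-204 use an earlier splice site for exon 7, which adds 31 bases at chr5:51490091-51490121 and is annotated to nonsense-mediated decay. The same splice choice brings a premature stop and is known to yield the short protein NT-PGC-1 alpha. Ppargc1a-202, an incomplete model of 4 exons, and Ppargc1a-204 start at a distal first exon 13804 bases upstream. The junction of exon 6 with exon 7 is shown without and with the added bases, which are in capitals (GENCODE M21, GRCm38, minus strand).
Ppargc1a-203 junction: ctgaccccagagtcaccaaatgacccca
Ppargc1a-201 junction: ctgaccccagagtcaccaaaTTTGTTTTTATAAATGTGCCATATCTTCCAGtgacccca
The first exons give the protein different beginnings, and their coding parts are shown with the start codon in capitals (chr5:51553735-51553782 for the proximal and chr5:51567630-51567665 for the distal exon, same source and strand).
Proximal first exon: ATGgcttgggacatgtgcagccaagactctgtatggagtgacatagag
Distal first exon: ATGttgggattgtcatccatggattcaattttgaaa

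Ppargc1a-203 carried 86.9% of the gene's reads and most of the rise. It measured 208, 276 and 353 CPM (lowest, median, highest) in cold fat and 42.1, 51.8 and 61.3 CPM in ctrl fat, without overlap. Its log2 fold change was 2.39 ± 0.15 (SE, edgeR adjusted p = 2.70e-06). Of the 4 transcripts with enough reads to test, 3 were higher in cold fat in the fit over all transcripts, where 10.3% of 30345 transcripts tested were called and 6.21% were higher, and 2 (Ppargc1a-203 and Ppargc1a-202) did not overlap between the groups, against 4.67% of all transcripts. Limma-voom called only Ppargc1a-203.

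Ppargc1a-201, with the exon 7 extension and the proximal start, held 10.6% of the reads. It had 102 to 1180 estimated reads per animal in cold fat and 0 to 72.4 in ctrl fat, where ctrl 10 and ctrl 14 had none. In CPM it was 3.41, 49.0 and 63.2 in cold fat and 0, 0.950 and 4.15 in ctrl fat. Cold 4 lay within the ctrl range and the other 5 cold animals far above it. The log2 fold change was 4.89 ± 0.99 (SE, edgeR adjusted p = 0.00744), while limma-voom gave an adjusted p of 0.359.

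The 2 forms with the extension made up 1.48%, 14.4% and 20.3% (lowest, median, highest) of Ppargc1a reads in cold fat and 1.19%, 3.21% and 6.86% in ctrl fat. Thus 5 of 6 cold animals were above every ctrl animal, and cold 4, at 1.48%, was near the bottom of the ctrl range. The mean was 12.9 ± 6.59% in cold fat and 3.73 ± 1.92% in ctrl fat (SD, n = 6 each), a difference of 9.18 percentage points (p = 0.0152, exact two-sided permutation test). This share was added after the transcripts had been seen. Leaving out 1 animal at a time gave 7.71 to 11.5 points. Of the 50-base windows in Ppargc1a transcripts, 79 occur only in forms with the extension and 3434 only in Ppargc1a-203. Ppargc1a-201 has no window of its own, so its split from Ppargc1a-204 rests on the first exon.

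**Figure D4:**
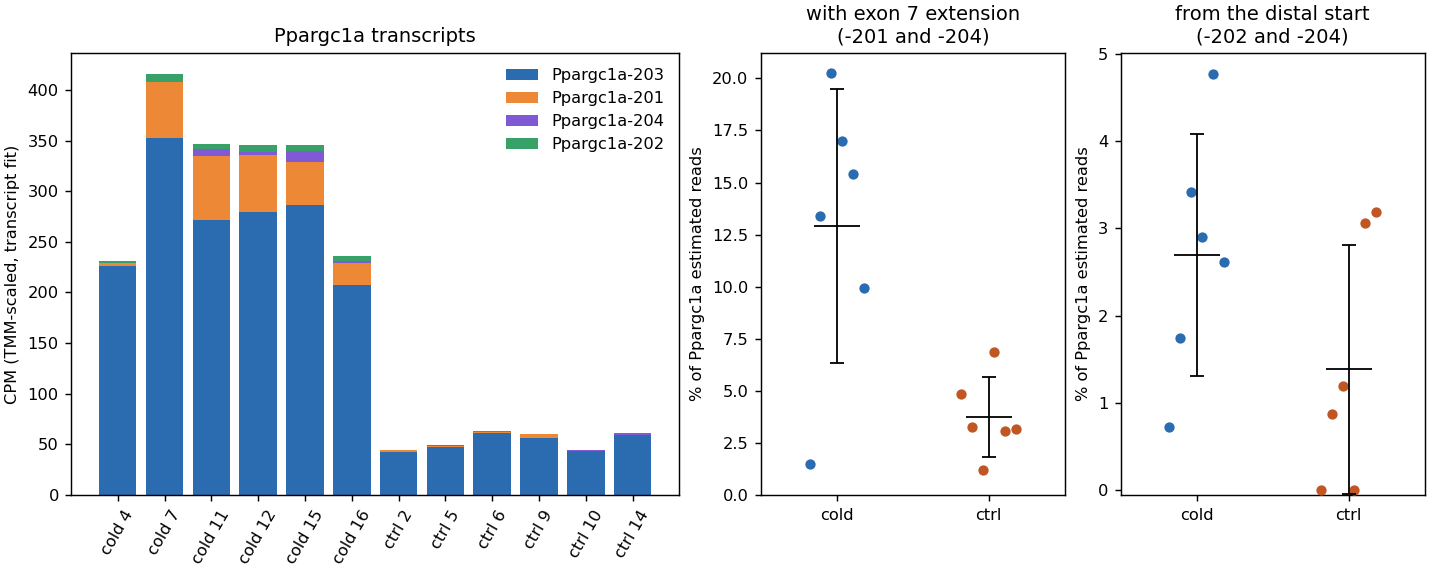
Left, CPM of 4 Ppargc1a transcripts stacked for each animal, cold before ctrl; centre and right, the percentage of Ppargc1a estimated reads with the exon 7 extension and from the distal start, with points for animals and line and bar for mean and SD (n = 6). The extension share averages 12.9% in cold fat and 3.73% in ctrl fat, with cold 4 at 1.48%, and the distal shares overlap.

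From the distal start, Ppargc1a-202 had 50.2 to 135 estimated reads in each cold animal, against 0 in 5 ctrl animals and 19.2 in ctrl 6. It was called (5.17 ± 1.15, SE, edgeR adjusted p = 0.0126), but not with limma-voom (adjusted p = 0.0845) or without ctrl 2 and cold 15 together (adjusted p = 0.0502). The fitted fold change depends on the reads of 1 library, since without ctrl 6 all ctrl libraries were at 0 and it came to 9.68. Ppargc1a-204 was not called, at 0 to 10.9 CPM in cold fat and 0 to 1.93 CPM in ctrl fat (2.62 ± 1.54, SE, edgeR adjusted p = 0.389). Ppargc1a-205 had 0 reads in every library.

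Summed by start site, the distal group measured 1.62, 8.54 and 16.0 CPM in cold fat and 0, 0.595 and 1.92 CPM in ctrl fat. Cold 4 was below ctrl 14, and the other 5 cold animals were above all ctrl animals. The distal group had a log2 fold change of 3.57 ± 0.77 (SE, edgeR adjusted p = 0.00472) and the proximal group 2.53 ± 0.16 (SE, edgeR adjusted p = 3.07e-08). As a share of Ppargc1a reads the distal start made up 2.69 ± 1.39% in cold fat and 1.39 ± 1.43% in ctrl fat (SD, n = 6 each). That difference of 1.31 percentage points was not past the threshold (p = 0.141, exact two-sided permutation test), and edgeR's diffSpliceDGE gave a relative log2 change of 0.70 (adjusted p = 1.00). As a share of summed TPM it was 23.0 ± 6.24% in cold fat and 5.28 ± 6.51% in ctrl fat (p = 0.00433, exact permutation test), a scale on which the 488 nt Ppargc1a-202 weighs far more. No transcript in the set joins the distal exon to the standard exon 7, so distal reads could be assigned to these 2 forms only.

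The promoter of this distal start, and those of Perm1 and Esrra, are shown because these genes were all higher in cold fat and their windows hold a searched motif. Each spans 250 bases before to 50 after the start (RefSeq, GRCm38.p6), with the motif in capitals. They lie at chr5:51567676-51567975 (minus strand), chr4:156215677-156215976 (plus strand) and chr19:6921759-6922058 (minus strand).
Ppargc1a distal promoter: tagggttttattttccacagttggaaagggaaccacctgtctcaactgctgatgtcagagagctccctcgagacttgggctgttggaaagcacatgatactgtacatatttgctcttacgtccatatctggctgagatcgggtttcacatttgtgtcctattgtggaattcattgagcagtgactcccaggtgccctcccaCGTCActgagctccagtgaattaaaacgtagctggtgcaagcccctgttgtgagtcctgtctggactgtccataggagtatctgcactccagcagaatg
Perm1 promoter: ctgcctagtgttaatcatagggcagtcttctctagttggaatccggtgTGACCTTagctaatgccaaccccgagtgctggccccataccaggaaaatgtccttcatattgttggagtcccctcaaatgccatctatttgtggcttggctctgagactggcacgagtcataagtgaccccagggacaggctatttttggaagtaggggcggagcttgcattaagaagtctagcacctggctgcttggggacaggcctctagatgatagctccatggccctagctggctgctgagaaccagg
Esrra promoter: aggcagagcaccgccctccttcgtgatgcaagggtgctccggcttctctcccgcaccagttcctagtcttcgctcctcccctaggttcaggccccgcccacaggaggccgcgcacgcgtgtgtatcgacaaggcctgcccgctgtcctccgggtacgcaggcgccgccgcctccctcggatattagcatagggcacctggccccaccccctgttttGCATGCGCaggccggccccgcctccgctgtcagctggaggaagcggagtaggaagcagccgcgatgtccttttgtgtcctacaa
The Ppargc1a window holds the core of the cAMP response element, TGACG, on its reverse strand, as do 20.8% of 32851 promoters. The Perm1 window holds the estrogen-related receptor element AAGGTCA on its reverse strand, as do 4.72%, and the Esrra window holds the NRF-1 core GCATGCGC on its forward strand, as do 2.71%. The Gabpa promoter holds the GABP motif CCGGAAG, found in 8.86%. Both strands were searched, and each match is a description of these letters only. The full element TGACGTCA (1.79% of promoters), the longer palindromic NRF-1 motif, which contains the core (0.971%), and the PPAR element, a direct repeat with a spacer (0.0396%), were in none of the windows available for these 8 genes. For Ppargc1a only the distal window was available, and that start held 2.69 ± 1.39% of its reads in cold fat (SD, n = 6). Its proximal promoter was therefore not searched, and Ppargc1b had no window.

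The genes whose profile over the 12 libraries was most like that of Ppargc1a, among 10198 genes whose log2 CPM averaged 2 or more, were Alpl, Npr3, Smad3, Atp1b1 and Slc9a3r1. Their root mean square differences from it were 0.33, 0.35, 0.36, 0.37 and 0.39 log2 units, and their log2 fold changes ran from 1.97 (Smad3) to 2.34 (Npr3). Nearest to Perm1 were Dock8 (0.15), B4galt5 (0.16) and Uck2 (0.19). Among the nearest to Esrrg were Pdpk1 (0.13) and Dock5 (0.15), nearest to Esrra Bccip (0.05), Tpi1 (0.06) and Gabarap (0.06), and nearest to Ppargc1b Epb41l1 (0.09), Bod1l (0.09) and Drosha (0.09).

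Among 19 tested partner factors and receptors on which PGC-1 proteins dock, 4 were higher and 0 lower in cold fat (21.1% called, against 31.6% of all genes). These were Esrrb, Ppard (0.36 ± 0.08), Mef2d (0.21 ± 0.06, edgeR adjusted p = 0.0199) and Foxo1 (0.41 ± 0.14), as log2 fold change ± SE. Only 2 were called without ctrl 2 and cold 15. The Foxo1 call was also lost with the muscle covariate, without the filter, and without cold 4, cold 7, cold 15, ctrl 2, ctrl 9, ctrl 10 or ctrl 14 singly, and the Mef2d call without the filter. No lower call came from DESeq2 or limma-voom, and 1 gene was lower at an unadjusted p under 0.05. Ppara and Pparg, the PPARs of brown adipocytes, had log2 fold changes of 0.23 ± 0.21 and 0.12 ± 0.08 and were not called. Of 5 GABP and NRF partners none was called by edgeR, DESeq2 or limma-voom or had an unadjusted p under 0.05, and the smallest p was that of Gabpb2 (0.15 ± 0.10). Without cold 4 there were 2 called, in a fit that called 5086 of all genes against 4380 with all animals.

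Of 19 coactivator complex members and activating enzymes, 5 were higher and 1 lower (31.6% called, as in all genes). Prkaa2, the catalytic alpha 2 subunit of AMPK, which phosphorylates PGC-1 alpha, was at 36.4 ± 5.60 CPM in cold fat and 21.3 ± 2.19 CPM in ctrl fat (SD, n = 6 each), and the log2 fold change was 0.77 ± 0.11. The Mediator subunit Med24 (0.28 ± 0.06) was higher, as were Prkaa1, Lpin1 and Ncoa1, and Ncoa3, the coactivator SRC-3, was lower at -0.61 ± 0.11. The Ncoa1 call was lost with the muscle covariate, without ctrl 2 and cold 15, and without cold 11, cold 12, cold 15, cold 16, ctrl 2, ctrl 5 or ctrl 6 singly. Sirt1, the deacetylase of PGC-1 alpha, was not called at -0.04 ± 0.13. Of 18 tested repressors and turnover factors 3 were higher and 3 lower (33.3% called). The split was 3 higher and 1 lower with library totals, 2 and 2 without ctrl 2 and cold 15, and 2 and 4 with the muscle covariate. The called genes include Ncoa3, which is on both lists, Fnip1 (0.57 ± 0.13) and Flcn (0.28 ± 0.08), partners in the folliculin complex that restrains TFE3, and Cnot6l (-0.32 ± 0.09), a deadenylase. The corepressor Ncor1 was lower, a call lost with library totals (as was that of Cnot6l) and without ctrl 2 and cold 15. Nrip1 (RIP140), a repressor of thermogenic genes, was not called at -0.40 ± 0.15 (edgeR adjusted p = 0.0526). Of 12 genes of the folliculin, TFE and CREB arm upstream, 3 were higher and 1 lower (33.3% called). These were Fnip1, Flcn, Atf4 (0.27 ± 0.10) and the CREB coactivator Crtc2 (-0.25 ± 0.08). The Crtc2 call was lost with library totals, without the filter, and without cold 7, ctrl 2, ctrl 6 or ctrl 10 singly. The Atf4 call was lost with limma-voom, with the stricter filter, without ctrl 2 and cold 15, and without any single animal other than cold 16 and ctrl 6 (edgeR adjusted p from 0.0528 to 0.101 in these omissions). Creb1 itself was not called at 0.17 ± 0.11.

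Among 11 tested factors of mitochondrial gene expression, some of them known targets of NRF-1, GABP and PGC-1, 5 were higher and 1 lower. The called share was 54.5%, against 31.6% of all tested genes, and the median log2 fold change was 0.02. Tfam, which packages mitochondrial DNA and starts its transcription, was at 62.7 ± 3.79 CPM in cold fat and 44.04 ± 4.03 CPM in ctrl fat (SD, n = 6 each), and the log2 fold change was 0.51 ± 0.07 (SE, edgeR adjusted p = 6.18e-05). Tfam, Mterf4 (0.62 ± 0.11) and the mitochondrial RNA polymerase Polrmt (0.40 ± 0.07) were above ctrl in every cold animal, as were 8.92% of all tested genes. Tfb1m and Twnk were higher and Tfb2m, at -0.18 ± 0.06, lower. No gene of this list was called lower with library totals, with the muscle covariate, without the filter, without ctrl 2 and cold 15, or when cold 11, cold 15, cold 16, ctrl 2, ctrl 5, ctrl 6 or ctrl 9 was left out singly. The Twnk call was lost without the filter, without ctrl 2 and cold 15, and without cold 7, cold 11, cold 15, cold 16, ctrl 5, ctrl 6, ctrl 9 or ctrl 14 singly.

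Of 34 fatty acid oxidation and energy genes, many of them known PGC-1 and ERR targets, 14 were higher and 2 lower. The called share was 47.1%, against 31.6% of all tested genes (16.2% higher and 15.4% lower), and the median log2 fold change was 0.20. Without cold 4 there were 17 higher and 5 lower, in a fit that called 5086 of all genes against 4380 with all animals. Cpt1a, the liver-type carnitine palmitoyltransferase, was at 85.3 ± 13.2 CPM in cold fat and 23.0 ± 3.36 CPM in ctrl fat (SD, n = 6 each), and the log2 fold change was 1.89 ± 0.12 (SE, edgeR adjusted p = 1.79e-08). The fatty acid binding protein Fabp3 rose by 1.66 ± 0.19 and the elongase Elovl3 by 2.36 ± 0.28 on the log2 scale. Acaa2, a thiolase of fatty acid oxidation, and Gpx1, which clears peroxides, were lower at -0.49 ± 0.09 and -0.63 ± 0.14. Ucp1, the uncoupling protein and a classic PGC-1 alpha target, was not called at 0.22 ± 0.11 (edgeR adjusted p = 0.135). Ckmt2, a creatine kinase also abundant in muscle, was not called either at 2.01 ± 0.95, and its value stands beside the muscle marker sums given above.

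**Figure D5:**
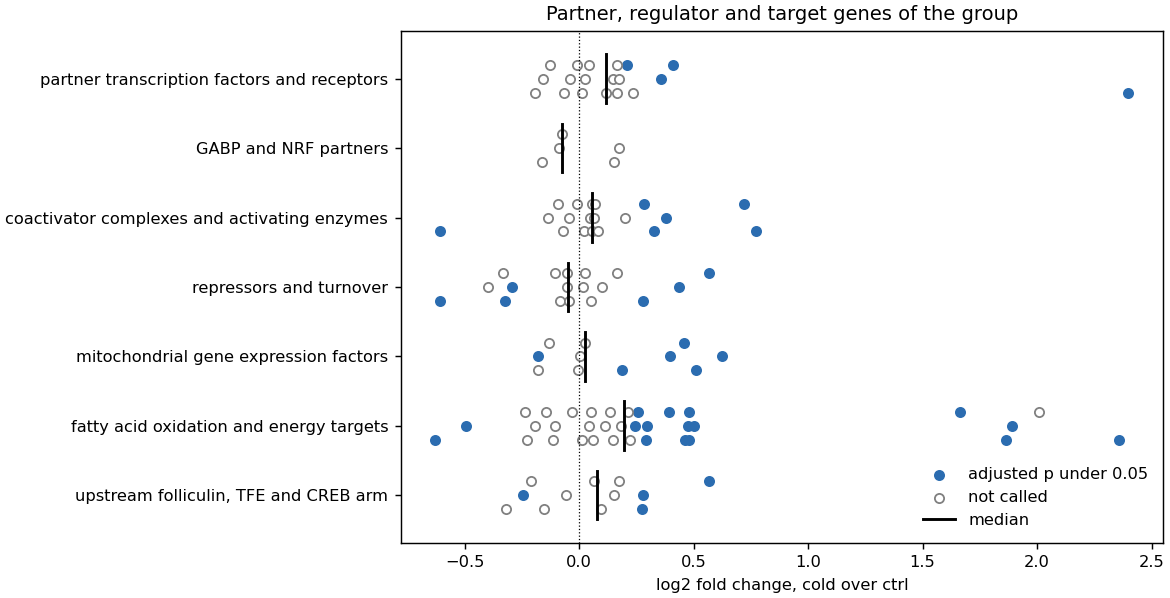
Log2 fold change, cold over ctrl, of every tested gene in 7 lists of partners, regulators and targets, with filled points for genes past the threshold and a line for the median of each list. Medians run from -0.07 for the GABP and NRF partners to 0.20 for the fatty acid oxidation and energy genes.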

How the data were processed

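Strand-specific poly(A) libraries of 12 animals were read as 50 nt pairs, per the labels' protocols. According to the submitters' processing notes, bcl2fastq, cutadapt, Salmon and GRCm38 were used (no versions). The transcript set behind the Salmon index was not given in the sources used here. Every deposited file has 140658 transcripts with estimated counts, not normalized, and TPM, scaled by effective length, per the file headers. Genes were assigned through GENCODE M21 by identifier without version. Of the transcripts 140137 matched and 521, with 0.0866% to 0.152% of reads, did not. Estimated counts were summed per gene and then rounded.

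Low features were removed with filterByExpr of edgeR (at least 10 counts). After TMM scaling, cold was compared with ctrl in a robust quasi-likelihood fit. P-values are two-sided and were adjusted by Benjamini-Hochberg over all features, at a threshold of 0.05. Transcripts and start-site groups (starts within 500 bases) were tested likewise. Intervals are 95% on the log2 scale by a normal approximation. The SE of the edgeR fits was derived from the log2 fold change and the F statistic of the test. The limited degrees of freedom were not carried into the intervals, which are therefore somewhat narrow. Ratios and shares were compared by exact two-sided permutation over all assignments of animals. Each animal is 1 replicate, the labels name no batch, and depth was 15984900 to 31424000 reads. The fits were tested on simulated data.

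The 8 genes, 7 pathway lists and 7 marker lists were chosen with earlier results of these data known, so no list counts as independent support. Named list genes are the 3 called members of smallest adjusted p, or the 1 of smallest p where none was called, and any others were picked with values in view. Some genes of the lists or near these 8 are not reported here. The alternatives were other scalings (RLE, library totals), other tests (DESeq2, limma-voom, diffSpliceDGE), no filter or a stricter one (50 reads in 6 libraries), a muscle marker covariate, mitochondrial genes removed, TPM shares, and libraries left out. The share with the exon 7 extension was added after seeing the data. Software was edgeR 4.0.16, DESeq2 1.42.0 and limma 3.58.1 under R 4.3.3, and SciPy 1.17.1, NumPy 2.4.6, matplotlib 3.10.9 and pandas 2.3.3 under Python 3.11.15.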

Additional observations from a re-analysis of the deposited data

Results flagged for a closer look

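Within each group of 6 animals, the highest and lowest values of 32 sets were compared with their nearest neighbour, and 4 sets had a gap above 0.625 of the group's range. Chance alone flags about 1 in 20 such sets. The cold group held 3 of them, all in cold 4. Its Esrra level was 505 CPM where the other 5 cold animals had 351 to 392 CPM. Its Gabpa level was 47.2 CPM where the others had 58.1 to 63.8 CPM. Its log2 ratio of Esrra over Esrrg was 4.37 where the others had 3.04 to 3.48. This ratio contains the flagged Esrra value, so it is not a separate flag. In the ctrl group, ctrl 6 had 0.752 CPM of Ppargc1a-202 where the other 5 ctrl animals had 0.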

How the results depend on the processing

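The count of called genes among the 8 stayed at 4 except when single animals were left out, where it was 3 to 5, and over all genes the calls then numbered 3859 to 5086 (4380 with all animals). With library totals as scaling, 2895 genes were called higher and 1409 lower, against 2246 and 2134 with TMM, and the median log2 change was 0.08. Limma-voom called 1 Ppargc1a transcript in place of 3, and the cause was not tested. The distal share gave 17.7 percentage points by TPM in place of 1.31 by reads, and 0.89 to 1.70 with 1 animal left out. The Esrra over Esrrg ratio gave -0.62 to -0.31 with 1 animal left out, and the Ppargc1a over Ppargc1b ratio 2.38 to 2.58. The sign of 2 uncalled genes turned: Ppargc1b ran from -0.0033 to 0.12 with 1 animal left out, and Nrf1 from -0.050 to 0.024, at 0.079 with library totals, 0.0037 without the filter and 0.0012 without ctrl 2 and cold 15. No paired analysis was possible because the mouse numbers of the groups differ. Reads of 50 nt limit how far Ppargc1a transcripts can be separated, and transcripts near 0 in ctrl fat have fold changes that depend on the fit.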
